A study of Rattus norvegicus with 6 samples.

Results

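The genes described here encode collagens, the triple-helical proteins that give tissue its tensile strength, and 5 small leucine-rich proteoglycans that sit on collagen fibrils. They were measured in brain tissue of rats after sham operation (3 arrays) and after intracerebral hemorrhage, a bleed into the brain substance, where the tissue is labelled as peripheral (ICH, 3 arrays). Members were all probes whose RefSeq transcript belongs to a gene named Col followed by a chain number, or to Dcn, Lum, Bgn, Fmod or Ogn. This gave 37 probes for 26 genes, 21 collagen chains and 5 proteoglycans, out of 30367 probes for 15443 named genes on the array. Another 23 collagen genes of the RefSeq table matched no probe by this route, among them Col4a2, Col5a2, Col6a1 and Col6a3, and were not analysed here. Every sample carries an age label of day 1, and the 3 arrays of a group are labelled as biological replicates. In the design text the second group is called transfected, a word found in no other label. Strain, sex, the way the bleed was made and the exact piece of tissue taken are not given in the sources used here. The series title places the injury of interest around the hematoma.

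Collagens are secreted as chains that wind into triple helices and are then built into larger structures. Fibrillar collagens (types I, II, III, V and XI) form the banded fibrils of connective tissue, and in the brain they lie mainly in the meninges and around larger vessels. Type IV collagen forms the sheet-like network of basement membranes, which surrounds every brain capillary and underlies the barrier between blood and brain. Small proteoglycans such as decorin and biglycan bind fibrils, set their spacing and hold growth factors. Lower or higher values in whole tissue cannot be told apart as fewer cells of a type or less RNA per cell, and this holds for all results below.

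Values are the deposited log2 intensities, in which 0 is the 75th percentile of the array, and differences are ICH minus sham on the same scale. They are given ± SE of the model with n = 3 arrays per group. Because each probe has its own brightness, a level is compared only between arrays and never between genes. On 22183 rows, 1 per named gene or unnamed probe, limma with Benjamini-Hochberg adjustment called 0% at an adjusted p under 0.05, with 3267 rows at an unadjusted p under 0.05, and so no member was called. All 26 genes passed the filter on dim probes. Correlations between arrays across genes were 0.985 to 0.991 within sham and 0.949 to 0.980 within ICH, and the SD of a row had a median of 0.14 among sham arrays and 0.31 among ICH arrays. Sham 1 to 3 and ICH 1 shared a row of the slide, and ICH 2 and 3 lay in the other row. The neuronal genes Snap25, Eno2, Tubb3, Map2 and Syt1 all passed the filter.

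Across the 26 genes, 20 were lower on ICH arrays (76.9%, against 55.5% of all rows) and 6 higher, with a median difference of −0.49 against −0.05 over all rows. That median was −0.29 without ICH 2 and −0.04 with spike-in centring. At an unadjusted p under 0.05, 7 members were lower (26.9%, against 8.99% of all rows) and 0 were higher (against 5.74%). All 3 ICH values lay below all sham values for 8 members (30.8%, against 17.3% of all rows), and above them for 0 (against 10.3%). The 7 were Col1a1, Col1a2, Col11a1, Col9a1, Col26a1, Bgn and Ogn. Left out 1 at a time, the arrays gave 4 to 9 such members, with 4 both without sham 1 (3.12% of all rows) and without sham 2 (5.68% of all rows). The 9 came without sham 3, where 1705 of all 22183 rows passed that p in either direction. The background moved too, from 1326 rows of either direction at that p without sham 1 to 4684 without ICH 3. Col5a1 was higher at that p without ICH 3, and Col8a1 without sham 2. With arrays centred on 7 spike-in probes, which moved the median of all rows to 0.39, 15 members were lower, 0 of them at an unadjusted p under 0.05 (against 0.825% of all rows). Directions given here are therefore relative to the typical gene on the array.

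**Figure D1:**
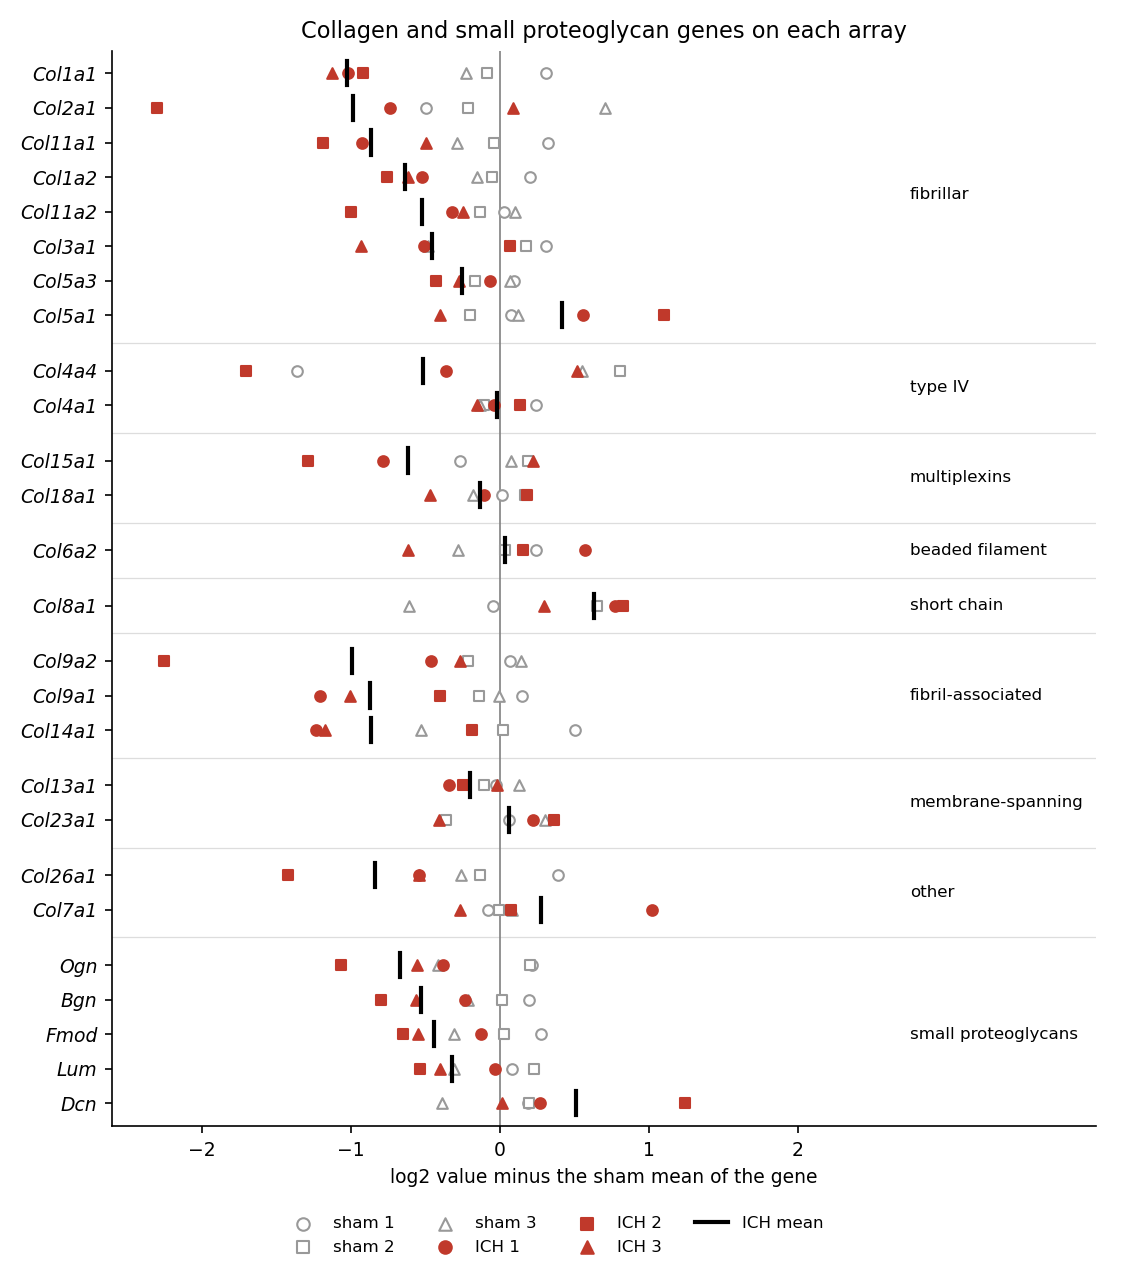
Log2 value of each of the 26 genes on each array minus its sham mean, grouped by structural class; open symbols are sham arrays, filled symbols ICH arrays, and the bar is the ICH mean. Col1a1, Col1a2, Col11a1 and Col9a1 have all ICH symbols left of all sham symbols, while Col4a1 does not, and the square of ICH 2 stands far left for Col2a1, Col9a2 and Col4a4.

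Among the fibrillar chains, 7 of 8 were lower in ICH, with a median difference of −0.58, or −0.14 with spike-in centring. Col1a1, which encodes the main chain of type I collagen, had log2 levels of 1.07, 0.68 and 0.54 in the sham arrays, in replicate order here and below, and of −0.26, −0.16 and −0.36 in the ICH arrays. The 3 ICH arrays lay close together and every one was below every sham array. The difference was −1.02 ± 0.18, a 2.03-fold lower value, with the smallest p of the set (unadjusted p = 0.00111, limma adjusted p = 0.224). Its 95% interval ran from −1.45 to −0.59, and it was −1.13 to −0.87 with any 1 array left out. A second Col1a1 probe gave −0.73 ± 0.22, and its ICH values of −1.23, −1.46 and −1.78 also lay below its sham values of −0.45, −1.03 and −0.80.

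Col1a2 encodes the other chain of type I collagen, which joins 1 copy to a pair of Col1a1 chains. Its levels were 2.56, 2.30 and 2.20 on the sham arrays and 1.83, 1.60 and 1.74 on the ICH arrays, again without overlap. The difference was −0.63 ± 0.15 (1.55-fold lower, limma adjusted p = 0.299). Relative to their sham means, the brighter Col1a1 probe stood below Col1a2 on each ICH array, by −0.50, −0.16 and −0.51. The sham arrays ran from −0.07 to 0.10. The second Col1a1 probe stood at −0.46, −0.70 and −1.02 in ICH, against −0.52, −0.76 and −0.62 for Col1a2. That probe was thus below Col1a2 on ICH 3 only.

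Type XI collagen sits in the core of fibrils and helps to start them. Col11a1 stood at −0.70, −1.06 and −1.31 in sham and at −1.94, −2.21 and −1.51 in ICH, a difference of −0.87 ± 0.24 (1.82-fold lower, limma adjusted p = 0.299). The groups did not overlap, although ICH 3 came near to sham 3. All 3 probes of Col11a1 gave a like difference, from −0.87 to −0.83. Its partner chain Col11a2 stood at 2.60, 2.44 and 2.67 on the sham arrays and at 2.24, 1.57 and 2.32 on the ICH arrays, a difference of −0.52 ± 0.23 (limma adjusted p = 0.358). ICH 2 was the lowest here, and without it the difference was −0.28. The other Col11a2 probe gave −0.73.

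The remaining fibrillar chains varied more between arrays. Col3a1, the type III chain of vessel walls and loose connective tissue, stood at 1.44, 1.31 and 0.65 in sham and at 0.63, 1.20 and 0.21 in ICH. These groups overlapped, since sham 3 was as low as ICH 1 (−0.46 ± 0.33, limma adjusted p = 0.510). Col2a1, the chain of cartilage fibrils, differed by −0.98 ± 0.65, but ICH 2 alone was at −4.81 while ICH 1 and ICH 3 were at −3.25 and −2.43. Without ICH 2 its difference was −0.32. Col5a3, a chain of type V collagen, differed by −0.25 ± 0.16. Col5a1, a type V chain that limits fibril width, was the only fibrillar member with a positive difference (0.42 ± 0.38, limma adjusted p = 0.593). It was highest on ICH 2, at −0.57, and lowest on ICH 3, at −2.08, around sham values of −1.87 to −1.56.

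Of the lower fibrillar chains with an entry, Col1a2, Col11a1 and Col11a2 are shown and Col5a3 is not. Their promoter stretches are given with that of Col4a1, whose brighter probe overlapped between the groups (−0.02 ± 0.16). The stretches differ in length and place, and that of Col1a2 ends at −151, short of the start. They come from RefSeq, build GRCr8, and positions count back from the annotated start. The table held 19 of the 26 genes, with no entry for Col1a1, Col3a1, Col2a1, Col6a2, Col14a1, Bgn or Dcn. Capitals mark 3 motifs searched on both strands. The CCAAT motif reads ATTGG on the other strand, the TATAAA motif reads TTTATA there, and the GGGCGG motif reads CCGCCC there. Overlapping matches are counted apart. The Col1a2 stretch lies at chr4:33518307-33518406, plus strand, positions −250 to −151. The Col11a1 stretch lies at chr2:204509006-204509135, plus strand, positions −130 to −1. The Col11a2 stretch lies at chr20:4817649-4817748, minus strand, positions −100 to −1. The Col4a1 stretch lies at chr16:84885521-84885596, plus strand, and is the whole of the 76 bases between the starts of Col4a1 and Col4a2, which are transcribed away from each other.
Col1a2: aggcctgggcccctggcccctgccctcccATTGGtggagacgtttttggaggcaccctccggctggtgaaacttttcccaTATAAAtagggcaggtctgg
Col11a1: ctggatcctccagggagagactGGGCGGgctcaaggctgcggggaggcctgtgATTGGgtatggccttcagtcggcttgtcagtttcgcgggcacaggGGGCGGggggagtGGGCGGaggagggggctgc
Col11a2: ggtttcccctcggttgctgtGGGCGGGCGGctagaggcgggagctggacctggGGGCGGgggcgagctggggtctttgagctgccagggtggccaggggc
Col4a1: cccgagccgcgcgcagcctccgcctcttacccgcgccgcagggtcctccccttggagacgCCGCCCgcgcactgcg

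In the Col1a2 stretch the CCAAT match began at −221 and the TATAAA match at −170. Col11a1 held a CCAAT match at −77 and GGGCGG at −108, −32 and −19, and Col11a2 held GGGCGG at −80, −76 and −47 and no TATAAA. Over the full 250 bases before the start, CCAAT was found in 3 of the 5 fibrillar genes with an entry and in 34.0% of all 33469 windows. GGGCGG was found in 4 of 5, among them Col5a1, which was higher in ICH, and in 30.5% of all windows. TATAAA was found in 1 of 5, Col1a2, and in 12.9% of all windows. The same letters occur in Col4a1, with CCAAT and GGGCGG both present in its 250 bases. GGGCGG lies in the printed stretch, at −16, and CCAAT farther back, beyond the start of Col4a2. These are matches of letters in a window and were not tested against the array values.

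Type IV collagen, the basement membrane class, was represented by 2 of its 6 genes. Col4a1, one of the chains found in all vascular basement membranes, stood at 0.50, 0.15 and 0.13 in sham and at 0.22, 0.39 and 0.11 in ICH. The groups overlapped throughout, and the difference was −0.02 ± 0.16 (limma adjusted p = 0.963), which turned to 0.42 with spike-in centring. Its 95% interval ran from −0.42 to 0.38. A second, much dimmer Col4a1 probe did not clear background on the sham arrays. It did so on the 3 ICH arrays, where it stood at −6.85, −6.26 and −7.21, against −7.71, −8.49 and −7.70 on the sham arrays. As a bound, each sham array was given the higher of the probe's own value and the dimmest signal that cleared background there. Against that bound the probe was at least 2.25-fold higher in ICH, and no test is given because it entered the fit only through its ICH values. The brighter probe is used in what follows. Col4a4, a chain of the specialised basement membranes of kidney and inner ear, was dim and uneven, at −6.36, −4.20 and −4.45 in sham and −5.37, −6.70 and −4.49 in ICH (−0.51 ± 0.77). Sham 1 and ICH 2 were its lowest arrays, and its difference was 0.08 without ICH 2.

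**Figure D2:**
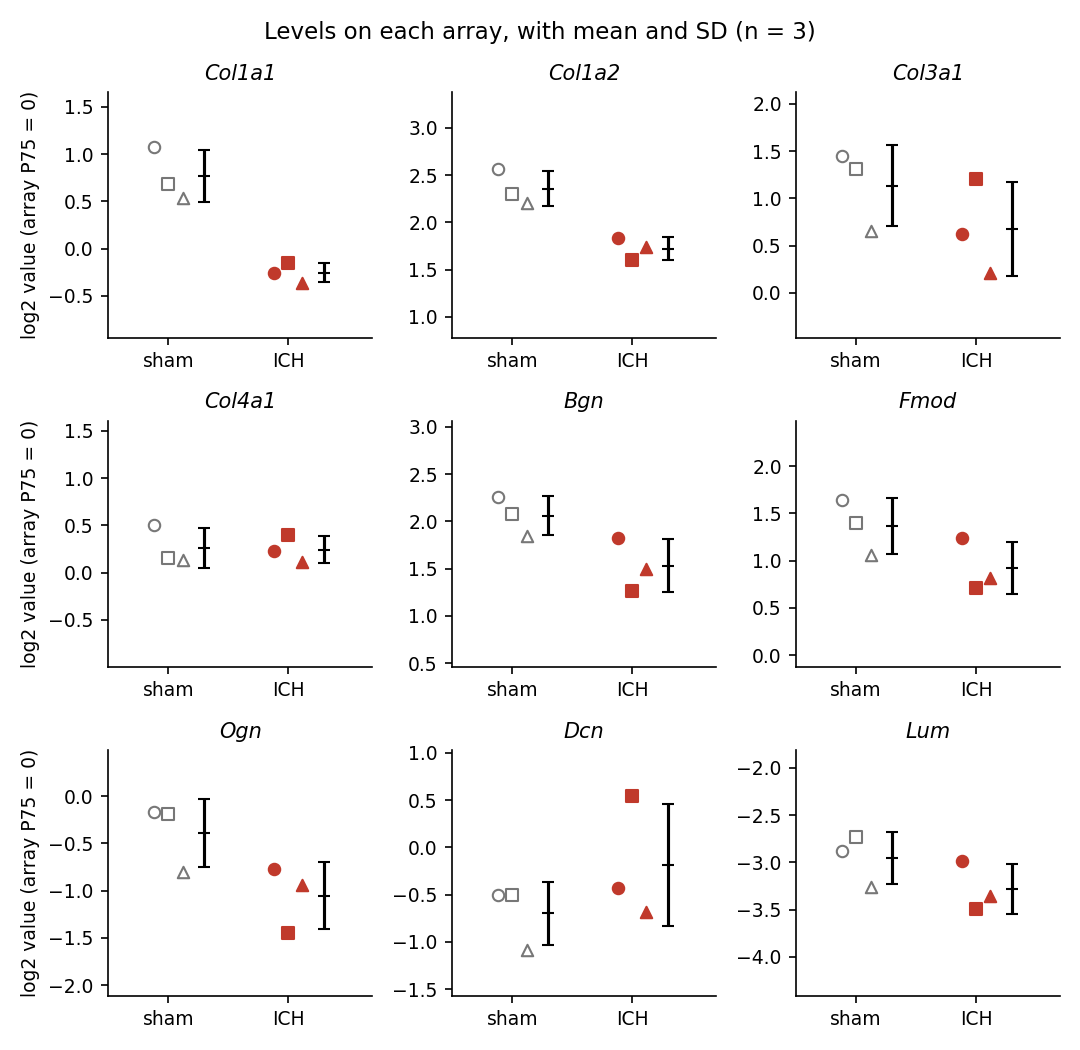
Log2 level (0 is the 75th percentile of the array) of 9 genes on sham and ICH arrays, with group mean and SD beside the points; every panel spans the same number of log2 units. Col1a1, Col1a2 and Bgn have no overlap between groups, whereas for Col4a1 the ICH values of 0.22, 0.39 and 0.11 overlap sham values of 0.13 to 0.50, and Dcn is highest on ICH 2.

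Set against each other as classes, fibrillar and type IV chains could not be separated with these arrays. Relative to the sham means, the fibrillar chains had medians of 0.15, −0.11 and −0.04 in sham and of −0.52, −0.84 and −0.45 in ICH. The type IV median, over Col4a1 and Col4a4 only, was −0.56, 0.35 and 0.21 in sham and −0.20, −0.78 and 0.18 in ICH. The difference of the class medians was −0.31, and on single arrays fibrillar minus type IV ran from −0.46 to 0.71 in sham and from −0.63 to −0.06 in ICH. Those ranges overlap, and without sham 1 the difference was 0.03. The spread came from Col4a4, whose SD was 1.18 among sham and 1.12 among ICH arrays, against 0.21 and 0.14 for Col4a1.

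With Col4a1 alone as the basement membrane chain, the type I chains did stand apart within each array. Col1a1 minus Col4a1 was 0.07, 0.02 and −0.09 in sham, with the sham mean set to 0, and −0.98, −1.05 and −0.97 in ICH. Col1a2 minus Col4a1 was −0.03, 0.06 and −0.02 in sham and −0.49, −0.89 and −0.46 in ICH. Both pairs thus separated the groups on every array, including ICH 1 in the slide row of the sham arrays. Col11a1 minus Col4a1 was also lower on all ICH arrays, at −0.89, −1.32 and −0.34, but Col3a1 minus Col4a1 was not, since ICH 2 stood at −0.07 and sham 3 at −0.35. Such within-array ratios do not depend on how arrays are centred. They show unequal differences of the probes and do not show that Col4a1 was constant, and no test of them was made. Only Col1a1, Col1a2, Col11a1 and Col3a1 were paired with Col4a1, and Col1a1, Col1a2 and Col11a1 have the smallest p of the fibrillar chains. Among the chains not paired, Col5a1 was higher in ICH by 0.42 and Col5a3 differed by −0.25 with overlap.

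**Figure D3:**
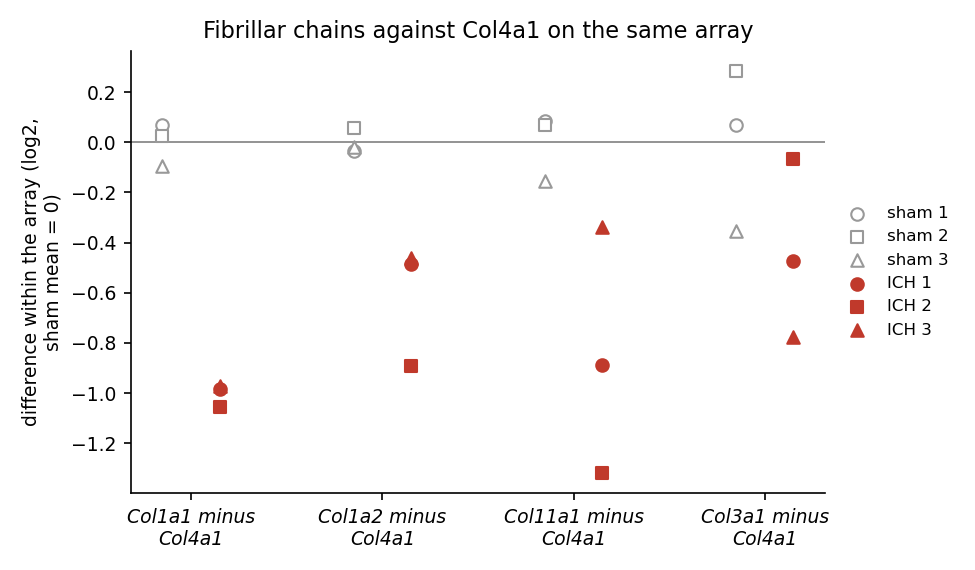
Log2 difference between a fibrillar chain and Col4a1 on the same array, with the mean of the sham arrays set to 0; open symbols are sham and filled symbols ICH arrays. Col1a1 minus Col4a1 lies between −1.05 and −0.97 on the ICH arrays and between −0.09 and 0.07 on the sham arrays, while Col3a1 minus Col4a1 overlaps between groups. The other fibrillar chains, among them Col5a1 and Col5a3, are not shown.

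The multiplexins are collagens of the zone around basement membranes, and Col18a1 is the source of the fragment endostatin. Col18a1 stood at −0.62, −0.47 and −0.81 in sham and at −0.74, −0.45 and −1.10 in ICH, with overlap and a difference of −0.13 ± 0.21 (limma adjusted p = 0.762). Col15a1 was lower on ICH 1 and ICH 2, at −2.42 and −2.92, than on any sham array, but ICH 3 was the highest of all, at −1.41. Its difference was −0.62 ± 0.39, and −0.28 without ICH 2. With these genes added to type IV, all 4 basement membrane genes had a negative difference, with a median of −0.32. That of Col4a1 was only −0.02, and 0 of the 4 had an unadjusted p under 0.05. Col4a1 turned positive in 6 of 19 alternatives. Col18a1 did so with spike-in centring and without ICH 3, and Col4a4 without ICH 2.

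The fibril-associated chains, which coat the surface of fibrils, had the lowest class median, −0.87 over 3 genes. Col9a1, a chain of type IX collagen, stood at −3.32, −3.61 and −3.47 in sham and at −4.67, −3.87 and −4.47 in ICH. These groups did not overlap (−0.87 ± 0.24, 1.83-fold lower, limma adjusted p = 0.299). Of its 2 other probes 1 gave −0.67, again without overlap, and the other 0.11. Col9a2, a second type IX chain, also had no overlap, but its difference of −0.99 ± 0.53 rested on ICH 2, at −3.35 against −1.56 and −1.37 on ICH 1 and 3, and was −0.36 without that array. Col14a1, which binds fibrils through decorin, was lowest on ICH 1 and ICH 3, at −5.37 and −5.31. ICH 2, at −4.32, lay among its sham values of −4.67 to −3.63 (−0.86 ± 0.38).

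The other collagens gave mixed values. Col26a1 was lower on all ICH arrays, at −3.46, −4.34 and −3.46 against −2.53, −3.05 and −3.18 in sham (−0.84 ± 0.31, limma adjusted p = 0.319), while its second, dimmer probe gave −0.03. Col8a1, a short-chain collagen of vessel walls, differed by 0.63 ± 0.34, or by 0.32 without sham 3 and 0.96 without sham 2, with sham arrays spread from −5.45 to −4.19 and ICH arrays from −4.55 to −4.02. Col7a1, which forms anchoring fibrils below epithelia, differed by 0.28 ± 0.33, and only ICH 1, at −0.17, stood above the sham range. Col6a2, a chain of the beaded filaments around cells, stood at 0.89, 0.68 and 0.37 in sham and at 1.21, 0.80 and 0.02 in ICH, so that the ICH arrays lay on both sides of sham (0.04 ± 0.33). The membrane-spanning chains Col13a1 and Col23a1 differed by −0.20 ± 0.15 and 0.06 ± 0.27.

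Of the small proteoglycans, 4 of 5 were lower, with a median of −0.44, which was −0.00097 with spike-in centring, where Lum turned to 0.12. Biglycan (Bgn), which binds collagen and can act on innate immune receptors when set free, stood at 2.26, 2.08 and 1.85 in sham and at 1.83, 1.27 and 1.50 in ICH. The groups touched without overlapping, ICH 1 lying just below sham 3 (−0.53 ± 0.20, 1.45-fold lower, limma adjusted p = 0.321). Its dimmer probe gave −0.17 ± 0.18. Osteoglycin (Ogn), a small proteoglycan of the same family, stood at −0.17, −0.19 and −0.80 in sham and at −0.77, −1.45 and −0.94 in ICH, where only sham 3 reached into the ICH range (−0.67 ± 0.26, 1.59-fold lower, limma adjusted p = 0.331).

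Fibromodulin (Fmod), which steers fibril assembly, stood at 1.64, 1.40 and 1.06 in sham and at 1.24, 0.71 and 0.81 in ICH, a difference of −0.44 ± 0.22 with overlap between ICH 1 and sham 3. Lumican (Lum), its relative, stood at −2.87, −2.73 and −3.26 in sham and at −2.98, −3.49 and −3.36 in ICH (−0.32 ± 0.21). Decorin (Dcn), which binds fibrils and the growth factor TGF-beta, went the other way, at −0.51, −0.50 and −1.08 in sham and at −0.43, 0.55 and −0.68 in ICH. ICH 2 alone stood clearly above the sham arrays, and the difference of 0.51 ± 0.36 was 0.14 without it. Sham 3 was the lowest sham array for all 5 proteoglycans, and of the ICH arrays ICH 2 was the lowest for Bgn, Ogn, Fmod and Lum.

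Several of these genes are neighbours in the RefSeq gene order. Dcn and Lum lie side by side, and their differences, 0.51 and −0.32, had opposite signs. Ogn lies beside Omd, which in turn lies beside Aspn, both encoding further members of the family, and these 3 neighbours differed by −0.67, −0.62 ± 0.41 and −0.63 ± 0.25. Aspn, which codes for asporin, stood at −3.37, −3.77 and −3.97 in sham and at −4.22, −4.76 and −4.02 in ICH, where ICH 3 lay just below sham 3 (limma adjusted p = 0.336). Fmod lies beside Prelp, which encodes a proteoglycan that anchors basement membranes and differed by 0.17 ± 0.21.

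**Figure D4:**
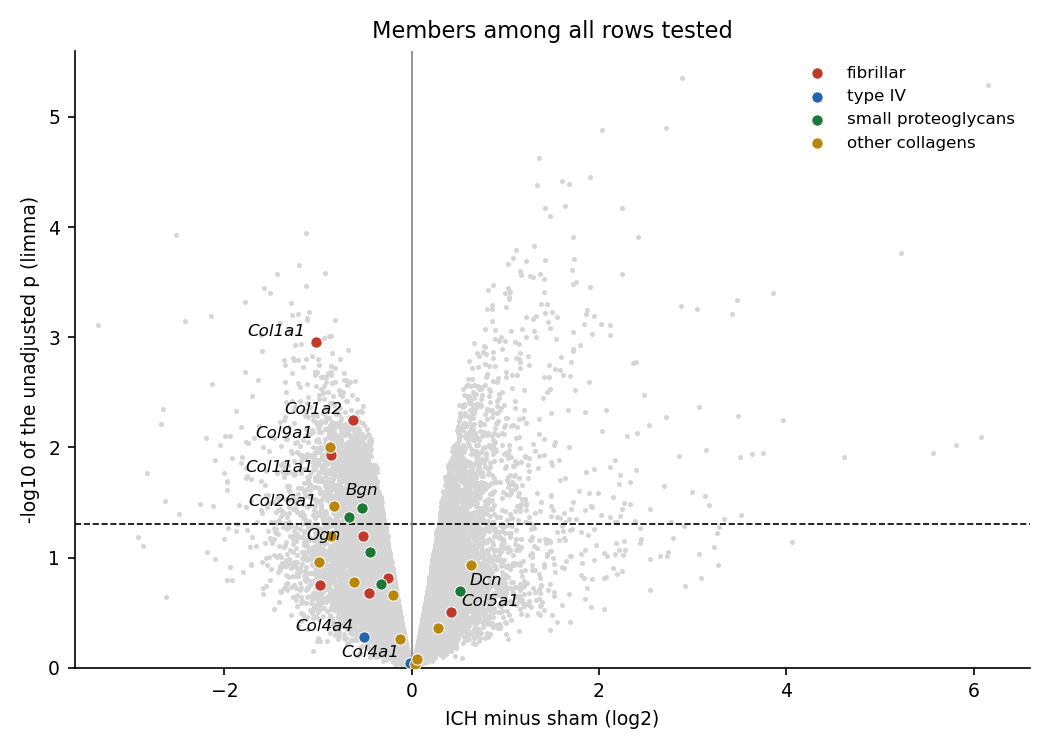
ICH minus sham difference (log2) against −log10 of the unadjusted p from limma for all 22183 rows in grey, with the 26 genes coloured by class and a dashed line at 0.05. The 7 members above the line, Col1a1 the highest, all lie left of 0, and the type IV chains lie below it.

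Genes that fold, cut and bind collagen gave mixed values. Of 17 measured genes for folding and modification, 13 were higher and 4 lower in ICH, with a median of 0.22, and 0 had an unadjusted p under 0.05. On single ICH arrays the median was 0.12, 0.29 and −0.09, so that ICH 3 lay below the sham arrays, and without ICH 2 the median difference was 0.08. It was 0.16 when arrays were centred on their median and 0.66 with spike-in centring. Plod2, a lysyl hydroxylase, differed by −0.46 ± 0.21, and P4ha1, a subunit of the prolyl hydroxylase that stabilises the helix, by 0.37 ± 0.20. P4ha1 was above every sham array on all ICH arrays, at 0.52, 1.16 and 0.65 against 0.36 to 0.47.

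Of 9 genes for processing and cross-linking, 4 were higher and 5 lower (median −0.15). Tgm2, a transglutaminase, stood at 1.23, 1.53 and 0.29 in ICH and at 0.22 to 0.30 in sham (0.75 ± 0.32, limma adjusted p = 0.350). Sparc, a collagen-binding matrix protein, was lower on all ICH arrays, by −0.37 ± 0.16 (limma adjusted p = 0.352). Of 7 collagen receptor genes 3 were higher and 4 lower, and Itga1, the integrin subunit that binds collagen IV, was lower by −0.62 ± 0.19 without overlap (limma adjusted p = 0.299). Itga10, another collagen-binding subunit, differed by −0.86 ± 0.47. Of 5 other small proteoglycans 4 were lower (median −0.53), and without ICH 2 their median was −0.16. Over the 38 genes of these lists, 2 were lower (against 8.99% of all rows) and 0 higher (against 5.74%) at an unadjusted p under 0.05, so that these lists showed no excess over the background.

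Most markers of vessel cells and fibroblasts were also lower on ICH arrays, and their part in the results was not tested. For the counts that follow, 55.5% of all rows were lower, 8.99% at an unadjusted p under 0.05. Of 10 endothelial markers 7 were lower, 4 of them at that p (median −0.40), and the sum of their linear values, in units of the 75th percentile, was 11.6 to 12.2 in sham and 8.81 to 9.59 in ICH. Of 11 mural cell markers 8 were lower, 2 at that p, and 1 was higher at that p, Notch3 (median −0.29), with sums of 15.2 to 18.3 and 12.5 to 14.4. Acta2, the actin of smooth muscle, differed by −0.77 ± 0.24 and Rgs5, a pericyte gene, by −0.62 ± 0.20. Of 10 markers of meninges and fibroblasts 8 were lower, 3 at that p (median −0.13), with sums of 24.1 to 31.5 and 21.4 to 25.3, and ICH 3 had the lowest median, −0.56. The direction of this list rested on that array, since its median difference was 0.08 without ICH 3, and it was −0.31 without sham 3 and −0.02 without sham 2. The same sum over all rows was 25775.2 to 26646.0 in sham and 23386.9 to 24567.9 in ICH. Under spike-in centring the endothelial, mural and fibroblast medians were 0.04, 0.15 and 0.31.

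Choroid plexus and myeloid markers differed between arrays within groups. Of 8 choroid plexus markers 5 were higher, and sums ran from 3.39 to 12.1 in sham and from 5.17 to 10.4 in ICH. Of 6 myeloid markers 4 were higher, the ICH arrays having medians of 0.81, 1.24 and −0.49, and sums of 14.0 to 14.6 and 10.8 to 15.8. The only 1 of them at an unadjusted p under 0.05, Aif1, was lower without overlap (−0.37 ± 0.12). Of 5 neuronal markers 3 were lower, Map2 at an unadjusted p under 0.05, while Syt1 was higher at that p. Of 5 astrocyte markers 3 were lower, among them Aqp4 at that p and without overlap (−0.46 ± 0.13). Sums were 21.3 to 23.1 and 19.3 to 21.5 for neurons and 15.1 to 16.5 and 12.7 to 15.8 for astrocytes.

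**Figure D5:**
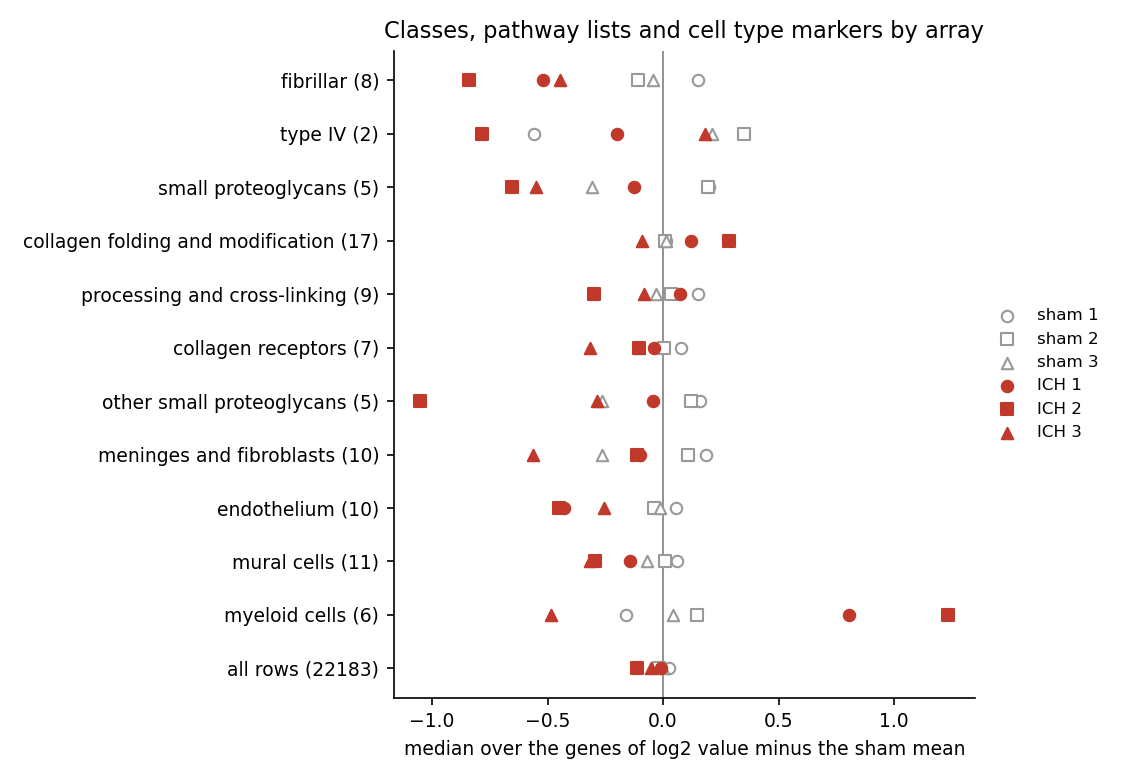
Median over the genes of a class or list of the log2 value minus the sham mean, for each array, with the number of genes in brackets; open symbols are sham and filled symbols ICH arrays. The fibrillar medians of −0.52, −0.84 and −0.45 on the ICH arrays lie left of all sham arrays, as the endothelial medians do, while the myeloid medians fall on both sides.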

How the data were processed

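Total RNA was labelled with Cy3 by linear amplification and hybridised to 6 single-colour Agilent arrays. Scanner intensity values come from Agilent Feature Extraction 11.5.1.1, per the file headers, whereas the submitters' processing notes name version 10.7. The authors' deposited table is on a log2 scale. For 98.3% to 99.2% of probes it matched, to 0.001, the log2 processed intensity averaged over a probe's spots after subtraction of 1 constant per array, so that the 75th percentile is 0. This was worked out from the values. The median of each deposited column ran from −2.77 to −2.61.

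These log2 values were used as deposited. Probes entered the test when 3 or more of the 6 arrays showed them well above background, judged by a share of 0.5 or more of their spots. Accessions were matched to RefSeq transcripts (GRCr8, for names only); 18355 of 30367 probes had 1 symbol, 0 several and 12012 none. Each gene was represented by its brightest probe. Group differences come from limma 3.58.1 in R 4.3.3 (no covariate, 6.13 degrees of freedom), with p adjusted by Benjamini-Hochberg over all 22183 rows. The script was tested on simulated data that had the spread of the sham arrays only (median SD 0.14). The ICH arrays varied more (median SD 0.31), so that test does not show how the fit performs at their spread. Spots well above background made up 81.8% to 85.4% of an array, 0 were saturated, and 0 pairs of arrays held identical values. The number of arrays limits the precision. Genes named were the major chains and proteoglycans, the 2 members of each class with the smallest p, members with an unadjusted p under 0.05 or a bound, and the 2 genes of each pathway list with the smallest p; all other members are given too, and further pathway and marker genes were named after their values were seen. For normexp the median spot signal took the place of the planned mean. Alternatives were the scanner signals, normexp (offset 50), quantile, median and spike-in centring, other filters and probe rules, other variance models, blocks and leaving out arrays. The members and lists were chosen with earlier results of these data known.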

Additional observations from a re-analysis of the deposited data

How the results depend on the processing

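Of 26 genes, 17 kept their direction under all 19 alternatives, and 0 were called under any. Not all of these alternatives could change a direction. The fit with an intensity trend and the replicate block leave each difference as it is. The other filters and the fit of every probe gave the same differences for the members. With spike-in centring, Col13a1, Col18a1, Col4a1, Col5a3 and Lum stood at 0.24, 0.31, 0.42, 0.19 and 0.12, the fibrillar median at −0.14 and the type IV median at 0.18, where all rows stood at 0.39. Other changes of sign were Col18a1 at 0.038 and Col4a1 at 0.049 without ICH 3; Col4a4 at 0.079, Col23a1 at −0.09 and Col6a2 at −0.02 without ICH 2; Col23a1 at −0.02, Col6a2 at −0.23 and Col7a1 at −0.10 without ICH 1; Col4a1 at 0.10 without sham 1, Col23a1 at −0.12 without sham 2 and Col6a2 at −0.10 without sham 3. With the mean of a gene's probes Col4a1 stood at 0.59 and Col23a1 at −0.0099, with quantile normalization at 0.0084 and −0.0031, Col4a1 at 0.0025 with normexp, Col23a1 at −0.15 with array weights and Col6a2 at −0.019 with median centring. At the other end of the values with 1 array left out were Col18a1 at −0.29, Col4a1 at −0.095, Col23a1 at 0.29, Col6a2 at 0.36, Col7a1 at 0.55 and Col4a4 at −1.19. The type IV median was 0.04 and fibrillar minus type IV −0.67 with the mean of a gene's probes. These values and the 0.59 of Col4a1 include its second probe, which entered the fit only through its ICH values. No conclusion is drawn from them. Rows called were 3 with normexp or array weights, 4 with an intensity trend or the filter on all 6 arrays, and 33 with spike-in centring. Leaving out 1 array gave 0 to 33 called rows, with 8 without ICH 2 and 33 without ICH 3. The fibrillar median ran from −0.67 to −0.45, the type IV median from −0.55 to −0.01 and their difference from −0.53 to 0.03 with 1 array left out.

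Equal replicate numbers did not pair the arrays, as deviations of same-numbered arrays correlated at −0.19, −0.01 and 0.07. With the replicate block 0 rows were called, and 6 members were lower (against 6.96% of all rows) and 1 higher at an unadjusted p under 0.05. The fibrillar median stayed at −0.58, which a block balanced over the groups cannot change. With the slide row as a block, which leaves ICH 1 against sham, the fibrillar median was −0.52 and the median of all members −0.33. Col1a1 stood at −1.02 and Col9a1 at −1.21 there, while Col7a1 stood at 1.02. Differences of the small proteoglycans shrank there, to −0.24 for Bgn, −0.38 for Ogn, −0.13 for Fmod, −0.03 for Lum and 0.27 for Dcn. Those of Col9a2 and Col5a3 shrank too, to −0.46 and −0.06. The causes of these changes were not tested. Probes near background, such as the second Col4a1 probe, give bounds only.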
